A study of Caenorhabditis elegans with 2 samples.

Results

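Enzymes encoded by 9 genes make up the core of fatty acid synthesis and desaturation in Caenorhabditis elegans, and these genes were followed here through a ChIP-seq experiment on the transcription factor LET-607. The genes were fat-1, fat-2, fat-3, fat-4, fat-5, fat-6, fat-7, pod-2 and fasn-1, taken by name, 9 of 19973 nuclear protein-coding genes in Ensembl release 115. ChIP-seq precipitates chromatin with an antibody and sequences the DNA that comes with it, so that stretches occupied by a protein appear as enriched regions. The series held 1 group of 2 biological replicates, with no mutant, treatment or time course to set against it. The worms were of strain YL651, with the genotype let-607(tm1423); unc-119(ed3) III and the integrated fosmid transgene vrIs121, which carries LET-607 with a GFP-FLAG tag at its C terminus together with unc-119(+). They were synchronised as starved L1 larvae after bleaching and collected as young adults at 49.5 hours. Whole animals were used and the precipitation was against GFP, so the chromatin of all tissues was pooled. Per the labels, chromatin was sonicated to between 200 and 800 bp.

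LET-607 is a basic leucine zipper factor of the CREB3 family, whose mammalian relatives are held in the membrane of the endoplasmic reticulum and released to the nucleus by cleavage. Fatty acid synthesis starts with POD-2, the acetyl-CoA carboxylase, and FASN-1, the fatty acid synthase, which build palmitate. FAT-5, FAT-6 and FAT-7 then place the first double bond in saturated chains, and FAT-2, FAT-3, FAT-4 and FAT-1 add further ones to make polyunsaturated fatty acids. Unlike mammals, the worm makes its own linoleic and omega-3 fatty acids. Much of this synthesis takes place in the intestine, where SBP-1, the worm SREBP, and the nuclear receptor NHR-49 are known regulators of several of these genes.

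The data were 4 lists of regions, each region with a summit, a signal value and a −log10 q-value from the authors' peak caller. The replicate 1 list held 30000 candidate regions, the replicate 2 list 26493 and the pooled list 30000. These candidate lists contain peaks and background by design, because they were the input to the irreproducible discovery rate (IDR), a procedure that keeps regions ranking alike in both replicates. The thresholded list held 1488 regions, and these were the 1488 strongest of the pooled list by signal. Membership thus coincided with a cutoff on pooled signal, and a single thresholded region need not rank alike in both replicates. The weakest thresholded region had a signal of 110.822, and the pooled region just below it had 110.815. Ranks below are counted from the strongest region of each list, and a signal is set only against others of the same list. Where the ranks of a region in different lists are set side by side, the lists can differ in length. Each gene received the regions whose summit fell inside its promoter window, which reached from 1000 bp before an annotated transcript start to 200 bp after it, for every such start. The region lists carry no read counts, so depth is unknown, and with 1 group no test between conditions exists.

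LET-607 regions at these enzymes were mostly below the authors' threshold, and the strongest pooled region in a promoter window was that of fat-4, a desaturase of the polyunsaturated branch. A thresholded region stood in the promoter window of 1 of 9 genes, fat-4, while 4.81% of all protein-coding genes had one. A pooled candidate stood in the window of 8 of 9 genes, all except fasn-1, with 39% over all genes. In replicate 1 the count was 8 of 9, all except fat-7, with 38.2% over all genes. In replicate 2 it was 9 of 9, with 36.5% over all genes. Candidates of both replicates were found for 8 of 9 genes, again all except fat-7, with 24.5% over all genes. Replicate summits within 100 bp of each other were found at 5 of 9, fat-3, fat-4, fat-5, fat-6 and pod-2, with 17% over all genes. These counts describe 9 genes chosen by name, and several of the genes have many annotated starts and therefore wide windows.

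The strongest pooled candidate in the window ranged from rank 1076 at fat-4 to rank 23676 at fat-7. In order of strength, fat-4 was followed by fat-3 at rank 2346, fat-1 at 2592, fat-2 at 4378, fat-6 at 4476, pod-2 at 5934, fat-5 at 18935 and fat-7. The pooled −log10 q-values were 2.86 at fat-4, 1.65 at fat-3, 1.43 at fat-1 and 0.714 at fat-2. They were 0.692 at fat-6, 0.478 at pod-2, 0.078 at fat-5 and 0.0472 at fat-7. The pooled list contains background by design, so the candidates with low values cannot be told from it. The median of these 8 genes was rank 4427, and that of all 7783 genes with a candidate in the window was 10372. With the first start alone, the ranks were 7903 at fat-4, 18229 at fat-6 and 16418 at pod-2, and the others kept theirs. The median of 4427 therefore rests partly on internal starts, and the median over all genes with first starts alone was not computed. The replicates did not give one common order. Replicate 1 placed pod-2 next after fat-4, with fat-1 and fat-2 behind them, whereas replicate 2 placed pod-2 and fat-3 next after fat-4. In both replicates fat-4 came first, and fat-5 and fasn-1 ranked behind fat-1, fat-3, fat-4, fat-6 and pod-2. The neighbours in the pooled order between fat-3 and pod-2 changed places between replicates, so their order was not resolved.

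**Figure D1:**
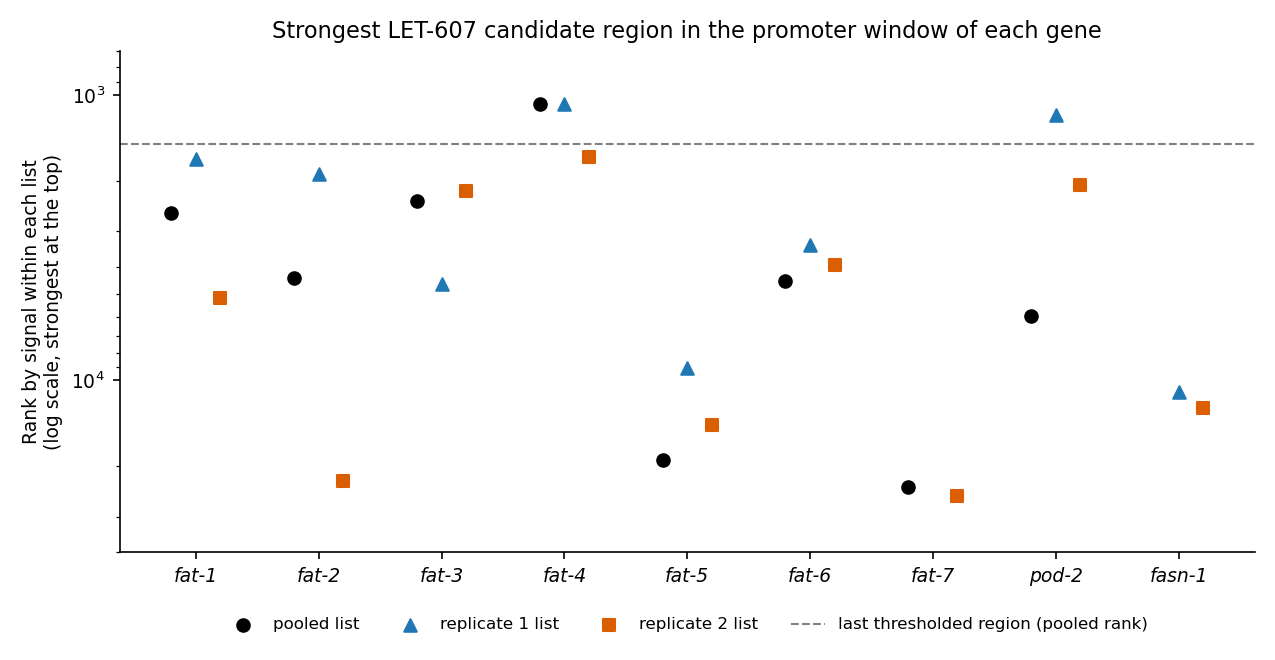
Rank by signal of the strongest candidate region in the promoter window of each gene, on a log axis with the strongest at the top, for the pooled list (circles), replicate 1 (triangles) and replicate 2 (squares). The dashed line is the last thresholded region, at pooled rank 1488, and fat-4 is the one gene whose pooled rank lies above it; a missing symbol means no candidate in the window.

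The fat-4 and fat-3 genes encode the delta-5 and delta-6 desaturases and follow each other on the same strand of chromosome IV. On ce11, fat-4 (WBGene00001396) spans chrIV:9799429-9802226 and fat-3 (WBGene00001395) chrIV:9803023-9806119, both on the plus strand. The thresholded region was at chrIV:9801430-9801833, with a signal of 130.2, rank 1076 and a −log10 q-value of 2.86. In replicate 1 the matching candidate had a signal of 65.1 and rank 1078, and in replicate 2 a signal of 59.9 and rank 1643, with summits 10 and 12 bp from the pooled one. The 3 summits thus coincided closely, and no other region in a window of the 9 genes had a higher pooled signal. It did not lie at the main start of fat-4. The summit was 2203 bp inside the gene from the first start, in an intron, and counted because it was 273 bp upstream of the start of the short transcript T13F2.1c.1. The same summit lay 1391 bp upstream of the first fat-3 start. At the first fat-4 start itself the strongest candidate had a signal of 56.9 and rank 7903, 842 bp upstream, and replicate 2 had no match for it.

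The summit sequence of this intronic region is shown because it carries the only thresholded call among the windows. It covers the summit and 50 bp to either side, chrIV:9801582-9801682 of the ce11 reference, plus strand, with 35.6% GC. Capitals mark the word TGATAA, of the kind read by factors such as the intestinal regulator ELT-2.
fat-4 intron summit: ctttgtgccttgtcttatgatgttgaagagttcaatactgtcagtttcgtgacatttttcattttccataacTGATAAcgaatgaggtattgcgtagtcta

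Between fat-4 and fat-3 a further candidate at chrIV:9802123-9802526 was the strongest in the fat-3 window. Its summit was 698 bp upstream of fat-3 and 99 bp past the annotated end of fat-4. Its signal was 90.2 at pooled rank 2346. In replicate 1 it had 38.1 at rank 4584, and in replicate 2 it had 52.6 at rank 2170. A weaker candidate with a signal of 42.0 and rank 17824 sat 28 bp upstream of the first fat-3 start. One more, with 74.1 and rank 3811, lay 2862 bp inside fat-3 in a coding exon near its last annotated start. By pooled signal, the candidate at the first fat-3 start was thus weaker than the one between the genes. In replicate 1 the start candidate had 34.9 at rank 6024, near the 38.1 between the genes. In replicate 2 it had 27.4 at rank 13502, with its summit 187 bp away, beside 52.6 between the genes.

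The fat-2 and fat-1 genes encode the delta-12 desaturase, which makes linoleic acid, and the omega-3 desaturase. They too are neighbours on the plus strand of chromosome IV, fat-1 (WBGene00001393) at chrIV:13315644-13318811 and fat-2 (WBGene00001394) at chrIV:13323873-13326395. A second thresholded region stood between them at chrIV:13322486-13322889. It was intergenic, 1185 bp upstream of fat-2, and thus just outside the window, and no protein-coding gene's window held it. Its signal was 129.7 at pooled rank 1085, next to that of the fat-4 intron. Replicate 1 gave 58.2 at rank 1397, with its summit 77 bp away, and replicate 2 gave 70.6 at rank 1134 at the same position. Both replicates thus placed it within their own 1488 strongest regions.

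Its summit sequence, chrIV:13322638-13322738 on the plus strand, is printed as that of a thresholded region just outside the fat-2 window. It had 52.5% GC. Capitals mark ACGT, the core that CRE-type words and the E-box word CACGTG share, which here lay at the very edge of the window, 49 bp from the summit.
fat-2 upstream summit: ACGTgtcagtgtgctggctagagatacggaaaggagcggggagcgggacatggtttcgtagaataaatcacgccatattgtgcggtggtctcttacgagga

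Inside the fat-2 window the strongest pooled candidate was 142 bp downstream of the start, in a coding exon, with a signal of 70.2 at rank 4378. Replicate 1 had it at 51.9 and rank 1889. The replicate 2 match, with 21.8 at rank 23109, had its summit 304 bp inside the gene and so outside the window. The strongest replicate 2 candidate inside the window, with 22.1 at rank 22495, was 979 bp upstream. Just past the end of fat-2, by 122 bp, stood a candidate with a signal of 109.7 at rank 1526, below the last thresholded signal of 110.822. It had 68.6 at rank 942 in replicate 1 and 40.6 at rank 4384 in replicate 2. The fat-2 gene was thus flanked by 2 candidates stronger than the one at its start.

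At fat-1 the picture was alike. The candidate in its window lay 191 bp downstream of the start, in a coding exon, close to the 200 bp limit, with a signal of 86.6 at rank 2592. It had 54.4 at rank 1671 in replicate 1, with its summit 106 bp away, and 38.4 at rank 5151 in replicate 2. Upstream, 1303 bp before the start, a candidate had a signal of 98.4 at rank 1930, with 71.2 at rank 1123 in replicate 2 and a summit 6 bp from the pooled one. The nearest replicate 1 summit, with 59.1 at rank 1348, was 134 bp away and lay closer to a neighbouring candidate of 74.8 at rank 3710. Past the end of fat-1, by 98 bp, a candidate had a signal of 104 at rank 1723. It had 42.5 at rank 3826 in replicate 2, 13 bp away. The nearest replicate 1 summit, with 66.6 at rank 1017, was 178 bp away and lay 21 bp from a neighbouring candidate of 85.4 at rank 2676.

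**Figure D2:**
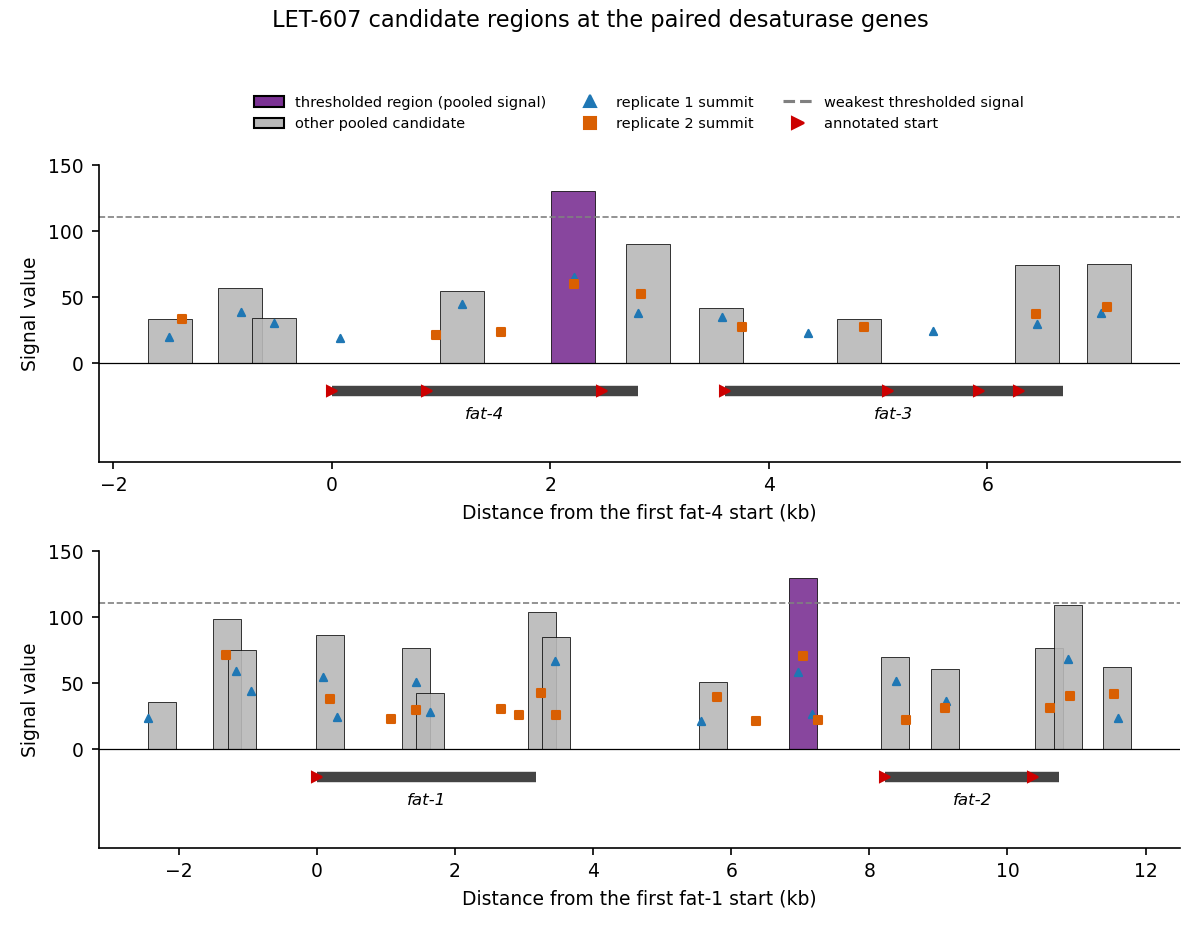
Signal of pooled candidate regions (bars, drawn at their width; purple where thresholded) and of replicate summits (symbols) against distance in kb from the first start of fat-4 (upper panel) and of fat-1 (lower panel), from 3 kb upstream of each gene to 1 kb past it. Dark lines are the genes and red arrowheads their annotated starts; the purple bars, 130.2 and 129.7, lie in a fat-4 intron and upstream of fat-2, and tall grey bars stand beyond the ends of fat-1 and fat-2.

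The fat-1 promoter is shown because it held more of the searched words than that of any other of the 9 genes. The stretch runs from 299 to 32 bp upstream of the start, chrIV:13315345-13315612, plus strand, ce11. Capitals mark the E-box word CACGTG at either side, with the word AGACGCAG and then the word TGACGTCA lying between them. The last capitals are the word GAGAGAGA on the minus strand, which therefore reads TCTCTCTC. TGACGTCA is the classical cAMP response element bound by CREB proteins, centred 188 bp upstream of the start.
fat-1 promoter: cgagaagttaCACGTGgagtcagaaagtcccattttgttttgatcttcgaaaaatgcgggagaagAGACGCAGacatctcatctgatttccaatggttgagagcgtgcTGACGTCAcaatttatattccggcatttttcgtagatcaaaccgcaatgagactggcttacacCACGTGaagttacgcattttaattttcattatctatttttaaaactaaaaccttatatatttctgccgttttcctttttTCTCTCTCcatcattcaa

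No region of any of the 4 lists overlapped this TGACGTCA word. The nearest summits were 379 bp away in the pooled list, 273 bp in replicate 1 and 375 bp in replicate 2. TGACGTCA was found in 5.89% of all 19972 promoters of the same length, from 1000 bp upstream to 200 bp downstream of the first start. CACGTG was found in 18.4% of them and AGACGCAG in 8.63%. TGACGTCA, CACGTG and AGACGCAG occurred together in 123 promoters, or 0.616%. This combination was taken from the words present in the fat-1 promoter, so its share is a description only and does not set fat-1 apart. These are matches of letters only, and nothing about binding was read from them.

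Sequence words were searched on both strands within 50 bp of the strongest summit of the 8 genes with a pooled candidate. The CRE-type words were TGACGTGG, TGACGTGT and TGACGTCA with their shared start TGACG, and the E-box word was CACGTG. The core ACGT is part of these 3 long words and of the E-box, so their matches overlap. The others were TGATAA for GATA factors, TCACNCCAC for sterol regulatory elements, and AGACGCAG and GAGAGAGA as further words. The word TGATAA was found at fat-4 and fat-2 and the core ACGT at fat-2, and none of the other 8 words was found within this distance at any of the genes. Over whole regions, CACGTG was found at fat-1, 104 bp downstream of the start, and TGACG at fat-3 and pod-2. ACGT was then found at 5 genes and TGATAA at 4. No share over all whole regions was computed to set beside these. Over all thresholded summit windows TGATAA was found in 15.5% and over all pooled ones in 9.20%. The corresponding shares were 34.1% and 23.2% for ACGT, 21.8% and 14.1% for TGACG, and 7.80% and 3.14% for CACGTG. The longer CRE-type words were rare in both lists, with TGACGTGG in 1.88% of thresholded and 0.623% of pooled windows, TGACGTGT in 1.68% and 0.28%, and TGACGTCA in 0.739% and 0.79%. AGACGCAG was found in 5.58% and 1.61%, GAGAGAGA in 3.36% and 1.65%, and TCACNCCAC in 0.134% and 0.273%.

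The upstream fat-1 candidate, 1303 bp before the start, is added for contrast, since its window held both a short CRE-type word and a word for the factors named above. The sequence is chrIV:13314291-13314391, plus strand, 37.6% GC. Capitals mark TTATCA, which is the word TGATAA on the minus strand, and CGTCA, which is the word TGACG on the minus strand.
fat-1 upstream summit: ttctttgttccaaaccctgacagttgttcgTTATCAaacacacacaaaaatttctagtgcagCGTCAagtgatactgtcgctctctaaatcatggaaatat

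The delta-9 desaturases FAT-5, FAT-6 and FAT-7 make monounsaturated fatty acids, FAT-5 from palmitate and the other pair mainly from stearate. None of their genes had a thresholded region within the window, and they differed among themselves. The fat-6 gene (WBGene00001398), on the minus strand at chrIV:11913692-11915687, had the strongest candidate of the 3. In its window it had a signal of 69.6 at pooled rank 4476, in a coding exon 94 bp downstream of the start of the second transcript. Replicate 1 gave 42.5 at rank 3344 and replicate 2 gave 42.1 at rank 3930, with summits 94 and 10 bp away. This summit also fell in the window of the neighbouring gene ZK822.9. With the first start alone, the best fat-6 candidate was at rank 18229.

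A stronger fat-6 candidate lay outside its window, in a coding exon 1670 bp from the first start, with a signal of 99.8 at pooled rank 1875. The replicates differed there. Replicate 1 had 88.0 at rank 562, the highest replicate 1 rank at any of the 9 genes, and replicate 2 had 31.6 at rank 9031. This region thus stood much higher in replicate 1 than in replicate 2.

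The fat-5 gene (WBGene00001397), at chrV:17725004-17726818 on the plus strand, had a candidate of 40.9 at pooled rank 18935, 503 bp upstream. Replicate 2 placed its summit at the same position, with 26.7 at rank 14357. The strongest candidate of replicate 1, with 30.6 at rank 9013, lay 10 bp upstream of the start, and its match to the pooled region, 24 bp away, was weaker, with 20.5 at rank 24412. A thresholded region, signal 132 and rank 1044, stood 3.113 kb upstream of fat-5 at chrV:17721689-17722092, intergenic and outside the windows used here. Replicate candidates with summits inside this region had 44.2 at rank 2997 in replicate 1 and 93.2 at rank 655 in replicate 2. A word of the sterol regulatory element type, TCACNCCAC, lay in the fat-5 promoter and was found in 2.00% of all promoters. It is printed with its surroundings, from 202 to 174 bp upstream of the start, chrV:17724802-17724830 on the plus strand, and the word is in capitals.
fat-5 promoter element: ctcttaaaaaTCACACCACtaaaacatca

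The candidate nearest this element had its summit 173 bp upstream of the fat-5 start, with a pooled signal of 32.6 at rank 29976, at the bottom of the list. It had no replicate 2 match.

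The fat-7 gene (WBGene00001399), at chrV:7151353-7153146 on the minus strand, had the weakest data of the family. Its one candidate in the window had a signal of 36.9 at pooled rank 23676, 719 bp upstream. Replicate 2 had 20.7 at rank 25498 at the same position and replicate 1 had none. No pooled summit fell inside the gene. Since fat-6 and fat-7 are close copies, with 84.6% identical bases over 1013 aligned coding bases, reads could be shared between them, although the longest identical run was 44 bp. Whether this touches the regions of fat-6 in its coding exons was not tested. The sources used here do not say how reads with several matches were treated. Other pairs were further apart, at 67.4% for fat-5 and fat-6, 64.6% for fat-1 and fat-2, and 62.2% for fat-3 and fat-4.

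The genes that start the pathway, pod-2 and fasn-1, had no thresholded region either. The pod-2 gene (WBGene00004076) is long, 15921 bp at chrII:1136785-1152705 on the plus strand, with 6 annotated starts. Its strongest candidate in a window had a pooled signal of 63.0 at rank 5934 in an intron, 97 bp upstream of an internal start. Replicate 2 had 53.8 at rank 2073, 8 bp from the pooled summit. Replicate 1 had its own strongest candidate, 62.6 at rank 1178, 605 bp upstream of the same start. The strongest summits of the replicates thus lay at different places before this internal start. Both replicates matched a weaker pooled candidate there, 7225 bp from the first start, with 19.8 at rank 25970 in replicate 1 and 27.9 at rank 12871 in replicate 2. At the first pod-2 start the best candidate was at rank 16418, 821 bp upstream, within an intron of the overlapping gene W09B6.4.

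**Figure D3:**
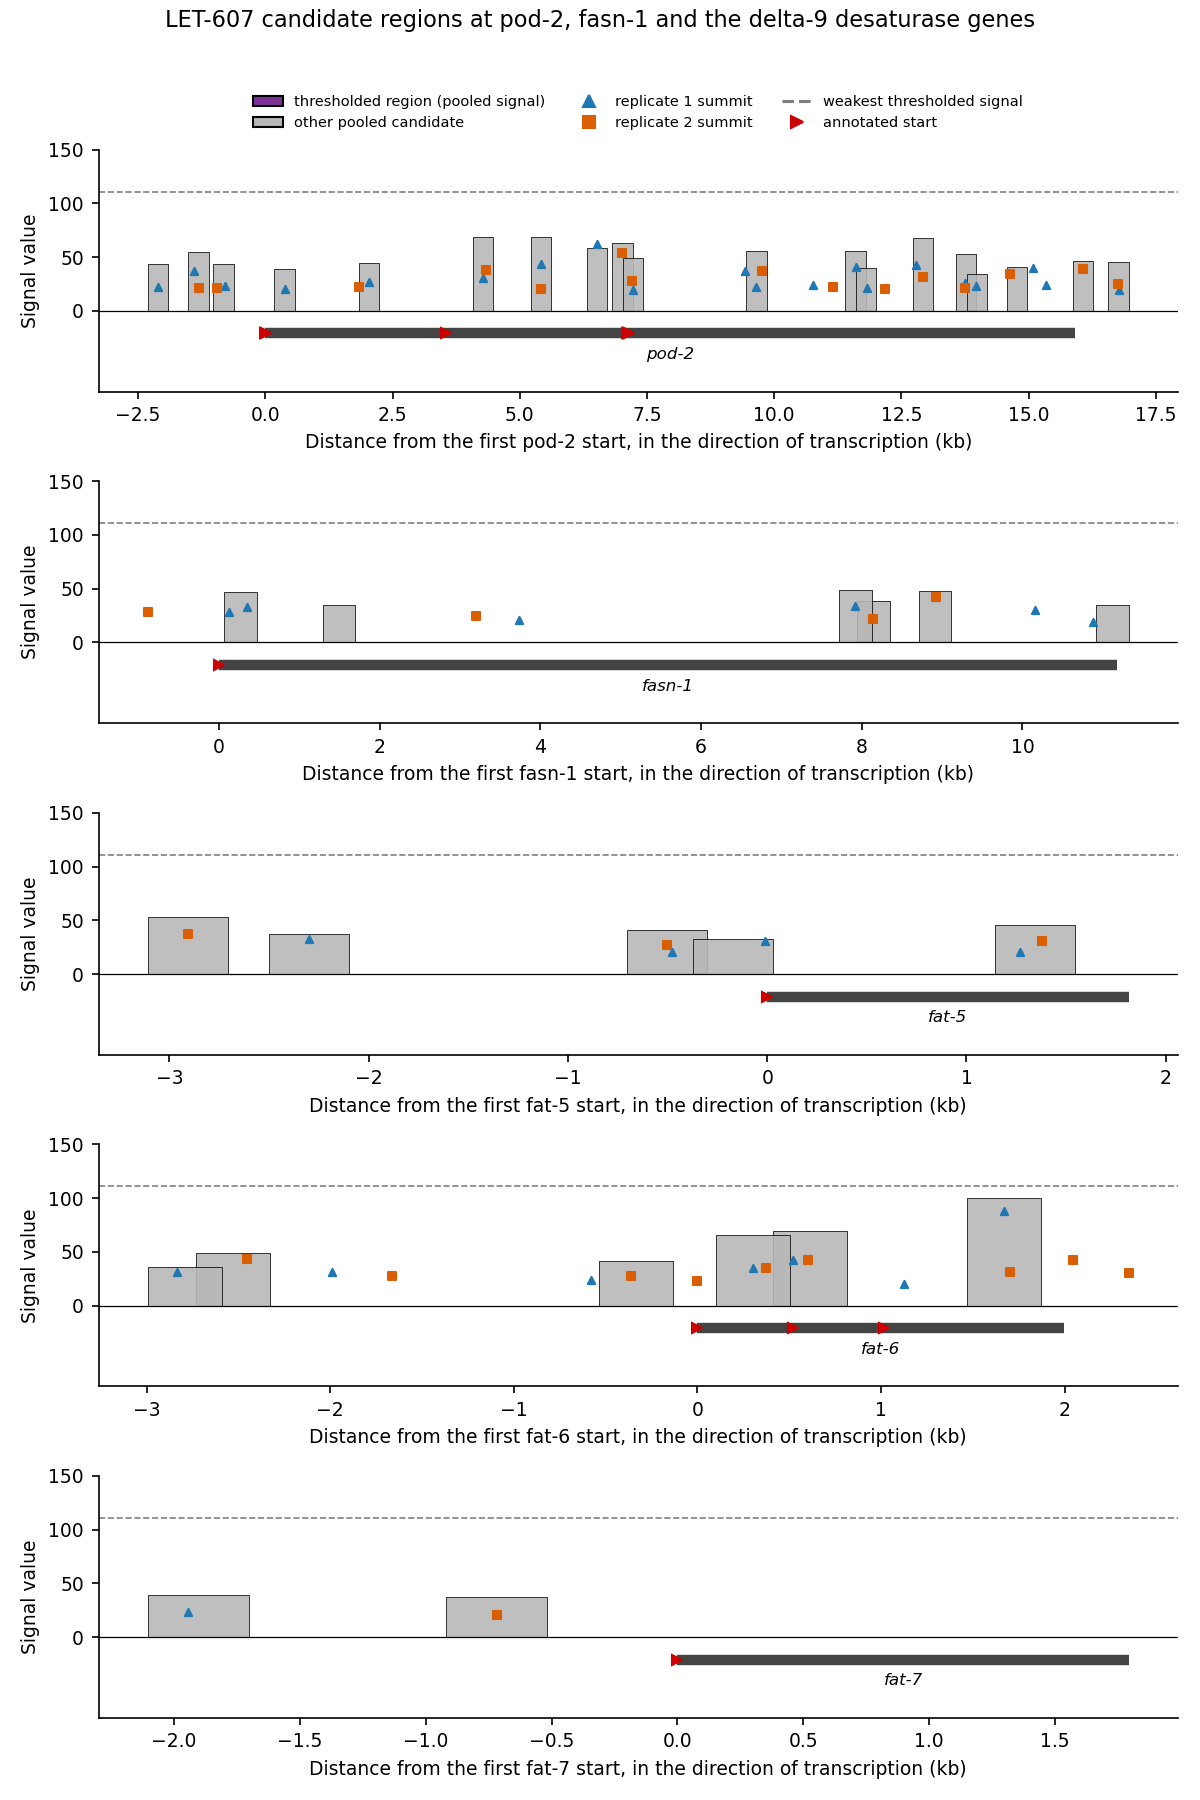
Signal of pooled candidate regions (bars at their width) and replicate summits (symbols) at pod-2, fasn-1, fat-5, fat-6 and fat-7, against distance in kb from the first start in the direction of transcription. No bar reaches the dashed line at the weakest thresholded signal of 110.822, and the tallest, 99.8, lies near the end of fat-6; the thresholded region 3.113 kb upstream of fat-5 is not drawn.

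The fasn-1 gene (WBGene00009342), on the minus strand of chromosome I at 8975366 to 8986540, was the only one of the 9 without a pooled candidate in its window. Its nearest pooled summit was 264 bp inside the gene, in an intron, beyond the 200 bp limit, with a signal of 46.6 at rank 13904. Replicate 1 had 28.6 at rank 10960, 118 bp downstream of the start, and replicate 2 had 28.1 at rank 12532, 889 bp upstream of it. Although both replicates counted as having a candidate, the summits lay on opposite sides of the start.

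Counted over gene bodies, pooled summits were denser than the mean over all genes at 8 of 9 genes, and 37% of all genes lay above that mean. At fat-6 there were 3 summits in 1996 bp. The density was 1.19 per kb at fat-2, 0.947 at fat-1, 0.879 at pod-2, 0.715 at fat-4, 0.646 at fat-3, 0.551 at fat-5 and 0.537 at fasn-1, whereas fat-7 had none. Over all protein-coding genes the mean was 0.331 per kb, and 51.3% of genes had no summit within them. By the strongest pooled candidate in the gene and 1000 bp to either side, 6.04% of all genes had a stronger one than fat-4. The share was 8.24% for fat-2, 9.23% for fat-1, 9.97% for fat-6 and 11.9% for fat-3. It was 20.5% for pod-2, 41.1% for fasn-1, 46.1% for fat-5 and 61.3% for fat-7. By this measure the 4 polyunsaturated desaturases and fat-6 were ahead of pod-2, fasn-1, fat-5 and fat-7. The measure was not adjusted for gene length, which ran from 1794 bp at fat-7 to 15921 bp at pod-2, and a longer gene can hold more candidates.

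A pooled summit lay within 200 bp past the annotated end of 4 of 9 genes, fat-1, fat-2, fat-4 and pod-2. Over all genes the share was 8.71%. This distance was chosen after the values at fat-1 and fat-2 had been seen, so the count is a description only. The fat-4 case is the candidate 698 bp upstream of fat-3, and pod-2 had a signal of 46.2 at rank 14153, 155 bp past its end.

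How the thresholded count depended on the window follows from these positions. With only the most upstream start of each gene, 0 of 9 had a thresholded region, and 4.31% of all genes did. With a window from 2000 bp upstream to 500 bp downstream, 3 of 9 did, fat-4, fat-3 and fat-2, and 6.71% of all genes did; fat-4 and fat-3 then share the same intronic region. The nearest thresholded summit was 0.273 kb from a start of fat-4, 1.185 kb from fat-2, 1.391 kb from fat-3, 3.113 kb from fat-5 and 7.044 kb from fat-1. It was 40.8 kb from fat-6, 43.5 kb from fat-7, 121 kb from fasn-1 and 177 kb from pod-2. The median over all protein-coding genes was 29.3 kb.

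Stronger regions than that of fat-4 were found at 4 genes of the wider lipid pathway, led by acs-4. Of 82 listed genes 79 were matched by name, and 5 of them had a thresholded region in the promoter window, or 6.33%, beside the 4.81% over all genes. The count was 1 of 21 acyl-CoA synthetases, 2 of 7 genes of phosphatidylcholine synthesis, 1 of 18 genes of triacylglycerol synthesis and storage, and 1 of 14 regulators. It was 0 of 12 genes of elongation, 0 of 4 genes of acetyl-CoA supply and cofactors and 0 of 3 genes of electron transfer to desaturases. The elongation genes, whose products extend the chains that the desaturases modify, had pooled candidates at 8 of 12, beside the 39% over all genes. Over all lists of the wider pathway together, 56 of 79 genes had one. The share ran from 2 of 4 genes of acetyl-CoA supply and cofactors to 12 of 14 regulators.

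The strongest was at acs-4, a long-chain acyl-CoA synthetase gene, with a signal of 750.7 at pooled rank 54. It had 289 at rank 64 in replicate 1 and 457 at rank 50 in replicate 2, so the replicates gave it nearly the same place. Its summit was intergenic, 436 bp upstream of the start. Next came cept-2, which encodes a choline/ethanolamine phosphotransferase, with 219 at rank 386, and pcyt-1, which encodes the CTP-using enzyme that activates phosphocholine, with 148 at rank 827 in an intron near an internal start. The regulator gene nhr-49 had 141 at rank 910, intergenic and 368 bp upstream of its start, with rank 1584 in replicate 1 and rank 759 in replicate 2. The diacylglycerol acyltransferase gene dgat-2 had 119 at rank 1283, in a window shared with fbxa-108. For dgat-2 the replicates were at rank 963 and rank 2404, whereas for cept-2 they were at rank 463 and rank 373.

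**Figure D4:**
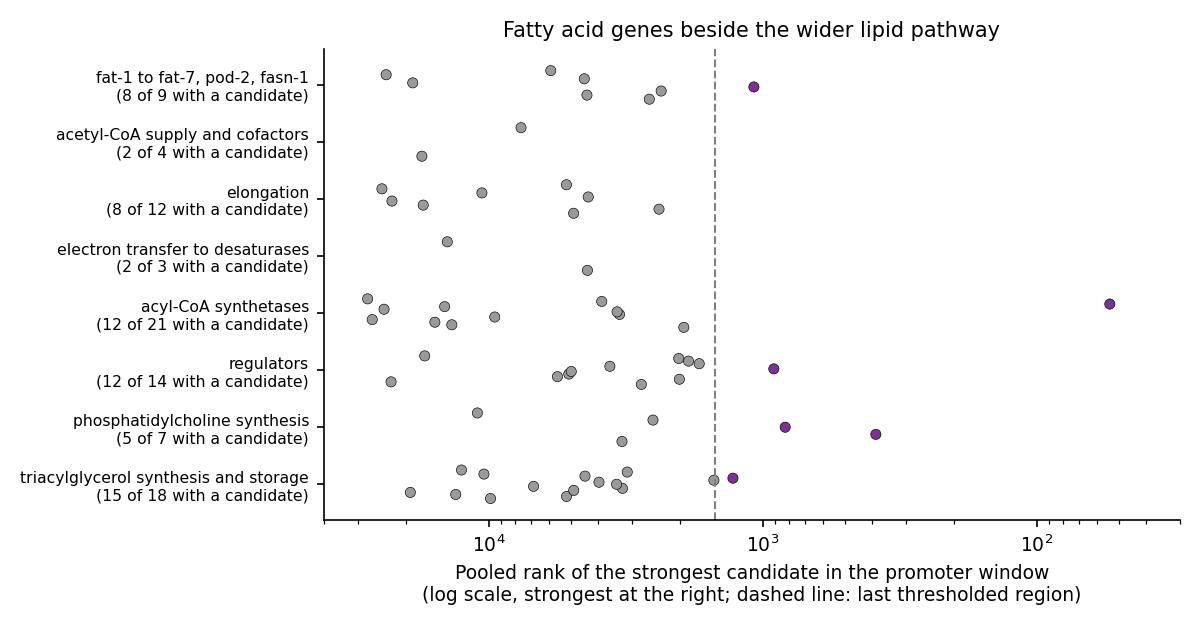
Pooled rank of the strongest candidate in the promoter window, on a log axis with the strongest at the right, for fat-1 to fat-7, pod-2 and fasn-1 (top) and 7 lists of the wider lipid pathway. Each point is a gene with a candidate, purple where thresholded; acs-4 at rank 54 stands farthest right, and fat-4 at rank 1076 is the one purple point of the top row.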

How the data were processed

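LET-607-GFP ChIP-seq was measured in 2 biological replicates of 1 group. The authors deposited narrowPeak lists on ce11, called against a control alignment per the text deposited with them: 1 per replicate, 1 pooled and 1 thresholded by IDR. Signal values were deposited by the authors without a formula, and served only to rank and describe regions within a list. The −log10 q-values, likewise deposited by the authors, have a ceiling, 3.18 in the pooled list, shared by 766 regions. The aligner, peak caller and IDR threshold were not given in the sources used here. Depth is unknown, and control reads were not used here.

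Summits (start plus offset, written 1-based) were assigned to genes of Ensembl release 115 on the matching assembly; mitochondrial genes were left out. All 9 names matched. Every member was named, and of the wider pathway those genes with a thresholded region. The names acs-8, acs-23 and acl-10 were unmatched. Words were counted on both strands of the reference sequence. The members and lists were chosen with earlier results of these data known. No test was run, since 1 group of 2 replicates allows none. The assignment was tested on simulated data. Alternatives changed the window, the starts, the threshold and the replicate used. Python 3.11.15, pandas 2.3.3, NumPy 2.4.6, Biopython 1.88 and matplotlib 3.10.9 were used.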

Additional observations from a re-analysis of the deposited data

How the results depend on the processing

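The count of 1 of 9 genes with a thresholded region was 3 with the window from 2000 bp upstream to 500 bp downstream, 0 with the most upstream start alone (an alternative chosen after seeing the data) and 0 in the stronger 744 thresholded regions. It ranged from 0 to 2 when 1 replicate was left out: the 1488 strongest regions of replicate 2 gave 0, and those of replicate 1 gave fat-4 and pod-2. The pooled count of 8 was 5 with a window from 500 bp upstream to 100 bp downstream, and ranged from 8 to 9 with 1 replicate left out. The count of 8 with candidates in both replicates was 4 in that narrower window and 5 with summits within 100 bp of each other. The pathway count of 5 was 13 in the wider window, 4 in the narrower one and 2 in the stronger 744 regions. It was 4 with the most upstream start alone. With 1 replicate left out it ranged from 6 to 8, but the genes changed. Of the named genes, acs-4, pcyt-1 and cept-2 stayed with either replicate left out. Without replicate 1 dgat-2 was lost, and without replicate 2 nhr-49 was lost, while genes not among the 5 entered. Words found in the summit windows numbered 2, and 4 when whole regions were searched. Assigning each summit to the nearest start alone left the 3 counts over the 9 genes as they were. The pathway count was then 4, without dgat-2. Of the pooled ranks that remained over the window and start alternatives, 19 stayed and 10 moved. This tally leaves out fat-1, fat-2 and fat-7 in the window from 500 bp upstream to 100 bp downstream, where they had no pooled candidate. No paired analysis was possible because only 1 group exists. Unknown depth, 2 replicates and an unstated signal formula limit every value.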
